A study of Rattus norvegicus with 15 samples.

Results

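This comparison sets the islets of 3 severely hyperglycemic rats whose pancreas had been largely removed (severe Px) against the islets of 5 sham-operated rats (Sham). The members were chosen from the blood glucose in the sample titles alone: the 3 partial pancreatectomy (Px) libraries marked 416 (replicate 13), 464 (replicate 15) and 421 (replicate 19), and all 5 Sham libraries, marked 88 to 96. Together they are 8 of the 15 libraries of the series. The lowest severe Px value, 416, stands beside 211 in the highest of the 7 remaining Px rats (lower-glucose Px, 104 to 211), which serve here only to show where severe Px differs. The labels give no unit for glucose.

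Every rat was of the inbred Lewis strain, and islets of Langerhans were taken 10 weeks after the operation. Px rats had 90% of the pancreas removed and Sham rats were operated on without that removal. The labels give an age of 4 to 5 weeks with no time point attached, and name no allele, drug or diet. They do not say in words whether a library pools animals, but the design lists 10 Px and 5 Sham rats for the 15 libraries. Px islets come from the part of the gland that was left or regrew, so surgery and glucose both differ from Sham and cannot be told apart in that comparison. Polyadenylated RNA was sequenced and read counts per gene were deposited.

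As background, islets are small endocrine organs in which beta cells secrete insulin, alpha cells glucagon, delta cells somatostatin and PP cells pancreatic polypeptide. Beta cells take up and break down glucose, the resulting ATP closes their potassium channels, and calcium then enters and releases insulin granules. Long exposure of islets to high glucose is known to lower genes of this machinery and to raise genes that healthy beta cells keep silent.

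The severe Px libraries held 22.3 to 33.4 M counts and the Sham libraries 12.2 to 18.4 M. Digestive enzyme and other acinar cell genes (31 measured) took 43.8%, 40.7% and 33.8% of the counts in severe Px replicates 13, 15 and 19, and 1.17%, 4.97%, 16.4%, 2.73% and 3.71% in Sham replicates 23 to 27. The groups did not overlap (39.4% ± 5.15 against 5.80% ± 6.09, SD, exact two-sided permutation test, p = 0.0357, the smallest that 3 against 5 allows), and lower-glucose Px spanned 22.6% to 53.3%. The 8 islet hormone genes took 4.55% ± 1.09 in severe Px and 17.5% ± 5.04 in Sham (SD, exact two-sided permutation test, p = 0.0357), and still 7.45% ± 1.16 against 18.4% ± 4.59 of the counts outside the acinar genes. The labelled islets thus carried hormone transcripts in every library together with acinar transcripts, and how much of each result below moves with the acinar share was not tested beyond a fit with an acinar score. In bulk RNA, fewer cells of a type and less RNA per cell cannot be told apart.

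**Figure D1:**
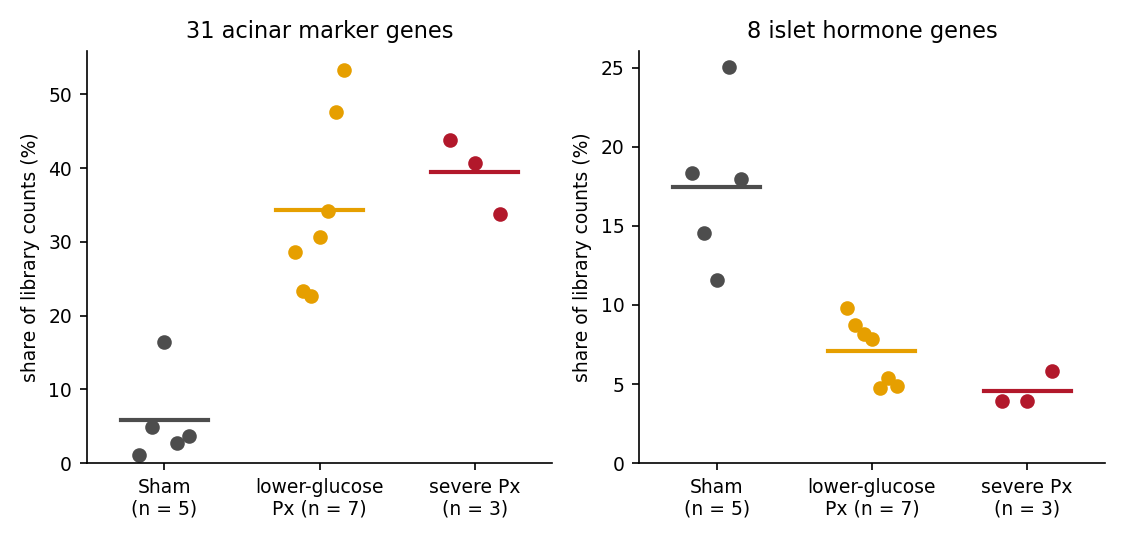
Share of each library's counts (%) from the 31 acinar genes and from the 8 islet hormone genes, with 1 point per library and a line at the group mean, for Sham (n = 5), lower-glucose Px (n = 7) and severe Px (n = 3). The severe Px acinar shares of 33.8% to 43.8% lie above the highest Sham share of 16.4%, and the severe Px hormone shares lie below all Sham shares.

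Levels are in CPM, a gene's count relative to all counts of its library on a common scale, with library sizes adjusted by TMM, a method that sets the scale so that most genes stay level. Sham values are listed in the order of replicates 23 to 27 and severe Px values in the order 13, 15 and 19. Differences are log2 fold changes ± standard error from edgeR's quasi-likelihood test, and a gene is called at a Benjamini-Hochberg adjusted p under 0.05 over all genes tested. Where 2 numbers follow the name of another setting, they are the log2 difference and its edgeR adjusted p. Nothing in the labels says more about how the rats of a group differ than their numbers and glucose, so the p-values measure the spread between these libraries.

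Most measured genes differed between severe Px and Sham islets. Of 15661 genes tested, 5045 (32.2%) rose and 3999 (25.5%) fell, together 9044 (57.7%), and large rises outnumbered large falls: 3451 genes rose and 884 fell by more than 1 on the log2 scale. All 3 severe Px libraries lay above all 5 Sham libraries in 4725 genes (30.2%) and below them in 3774 (24.1%). Distances between libraries, the root mean square log2 difference over genes, were 0.364 to 0.398 within severe Px, 0.295 to 0.461 within Sham and 0.874 to 1.1 between them.

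The balance of rises and falls depends on the scale. With library totals alone, 1865 genes rose and 9074 fell (17.0% of the calls higher, against 55.8% here), and the median over all genes moved from 0.05 to −0.96. Scaling on 8 endocrine secretory granule genes gave 6986 rises and 1056 falls (86.9% higher), with a median of 0.47. Among these granule genes are Chgb, Scg2 and Pcsk2, which were themselves called between the groups. A fall that other endocrine genes share with the granule genes is therefore taken up by this scale. With an acinar score as a covariate, which the non-overlapping shares tie closely to the group, 2114 genes rose and 1638 fell. Changes below are therefore relative to the bulk of genes, and each group is read against the 32.2% that rose and 25.5% that fell among all genes tested. The gene lists were set with earlier results of these data known, so their shares describe the lists and are no independent test.

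**Figure D2:**
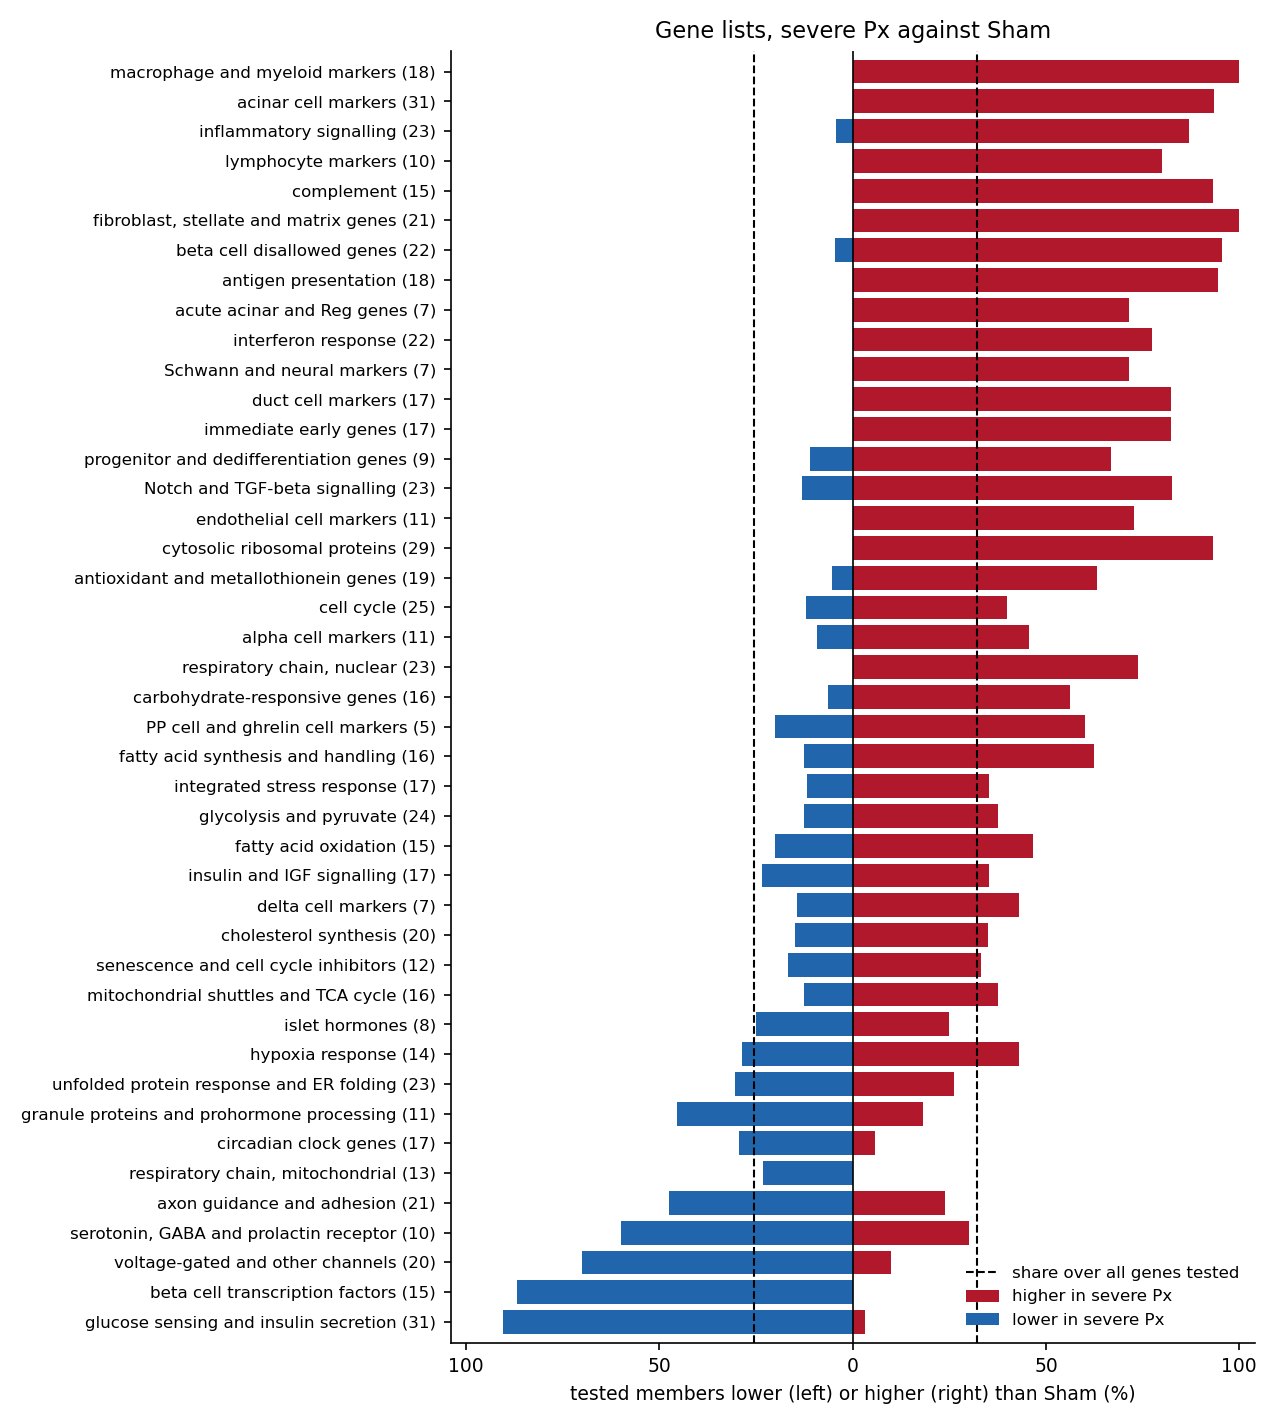
Percent of the tested members of each gene list that rose (right) or fell (left) in severe Px against Sham (edgeR, adjusted p under 0.05), with dashed lines at the 32.2% and 25.5% of all genes tested. Beta cell transcription factors and secretion genes lie far to the left, and macrophage, fibroblast, complement and disallowed genes far to the right.

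Insulin transcripts were lower and 2 other hormones were higher. Ins1 (chromosome 1, 272799784 to 272800347, build not given in the sources used here) and Ins2 (chromosome 1, 215856971 to 215858034) encode the 2 rat insulins. Ins1 CPM was 76580, 61260, 55230, 134700 and 84440 in Sham and 35190, 30520 and 33910 in severe Px, so that every severe Px library lay below every Sham library (−1.31 ± 0.43, edgeR adjusted p = 0.0149). Ins2 was 21540, 13530, 14060, 36280 and 21830 in Sham against 8599, 6459 and 6768 (−1.56 ± 0.40, edgeR adjusted p = 0.00327), again without overlap; reads of the 2 similar genes may be split uncertainly. Neither passed with the acinar score in the fit (Ins1 −0.76, edgeR adjusted p = 0.359, and Ins2 −0.81, 0.376).

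The other hormones went separate ways. Ppy, the pancreatic polypeptide of PP cells, was 680.2, 751, 733, 1195 and 435 CPM in Sham and 1912, 1289 and 1908 in severe Px, all 3 higher (1.17 ± 0.28, edgeR adjusted p = 0.00193). Its relative Pyy, peptide YY, was 9.04, 9.21, 11.4, 12.8 and 7.53 against 23.3, 32.1 and 26.1, also without overlap (1.44 ± 0.22, edgeR adjusted p = 3.94e-05). Gcg, glucagon, was 9577 to 12200 CPM in severe Px and 5735 to 8783 in Sham and did not pass despite separate ranges (0.56 ± 0.31, edgeR adjusted p = 0.136). Iapp, amylin, which beta cells release with insulin, overlapped Sham (8276 to 15420 against 12460 to 18400 CPM, −0.28 ± 0.31, edgeR adjusted p = 0.451). Over the list 2 of 8 hormones rose and 2 fell (25% each, against 32.2% and 25.5% of all genes tested). By library totals Ppy (0.17, edgeR adjusted p = 0.678) and Pyy (0.46, 0.189) did not pass, Ppy also not with the acinar score (1.49, 0.0655), Iapp was called lower by totals (−1.27, 0.00244) and turned to 0.13 by granule scaling, and Gcg turned to −0.44 by totals and was called higher by granule scaling (1, 0.00289).

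Transcription factors that build and keep the beta cell were lower almost throughout: 13 of 15 tested fell (86.7%, against 25.5% of all genes) and none rose, with a median of −1.07 against 0.05 over all genes. Nkx6-1, which maintains beta cell identity, was 224, 203, 209.6, 247 and 265 CPM in Sham and 68, 84.5 and 60.2 in severe Px (−1.7 ± 0.16, edgeR adjusted p = 4.64e-07), and each severe Px value was under the lowest Sham value. Isl1, a factor of all endocrine cells of the islet, ranged 26.7 to 30.4 against 53.9 to 71 CPM (−1.06 ± 0.11, edgeR adjusted p = 1.77e-06). Pdx1, the central activator of insulin transcription, was 37.4, 38.4, 35.2, 40.8 and 39.3 CPM in Sham and 20.9, 25 and 18.1 in severe Px (−0.84 ± 0.16, edgeR adjusted p = 0.000271). Mafa, the factor of mature beta cells, was 60.0, 38.8, 63.4, 103 and 105 against 50.2, 61.2 and 24.8 with overlap and did not pass (−0.70 ± 0.37, edgeR adjusted p = 0.115). By granule scaling or with the acinar score 8 of the 15 fell, Pdx1 not among the calls (−0.40, edgeR adjusted p = 0.143, and −0.84, 0.0634). Mafa passed when Sham replicate 24 was left out (−0.87, 0.0488) and by library totals (−1.74, 0.000204).

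Glucose sensing and insulin secretion genes fell in 28 of 31 tested, with 1 rise (median −1.16). The incretin receptor Glp1r (chromosome 20, 9586075 to 9626228) had 231, 207, 227, 220.3 and 252 CPM in Sham and 54.3, 56.6 and 57.4 in severe Px (−2.02 ± 0.14, edgeR adjusted p = 5.51e-08). Ucn3, a peptide of mature beta cells that stimulates delta cells, had 216, 249.6, 295, 309 and 265 against 51.5, 59 and 78.4 (−2.08 ± 0.19, edgeR adjusted p = 4.21e-07). In both genes the severe Px values stay under every Sham value. Slc2a2, the glucose transporter GLUT2, was 1751, 1701, 1711, 1778 and 2100 CPM in Sham and 540.4, 610.4 and 730.5 in severe Px, again without overlap (−1.53 ± 0.18, edgeR adjusted p = 3.89e-06). Abcc8, the sulfonylurea receptor of the potassium channel, fell least among the named members (226 to 261 against 302 to 364 CPM, −0.46 ± 0.13, edgeR adjusted p = 0.00832), and was not called by granule scaling (−0.03, 0.884) or with the acinar score (−0.27, 0.484).

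Adenylyl cyclases, which make cyclic AMP downstream of incretin receptors, moved apart. Adcy8 fell (0.64 to 1.48 against 5.44 to 9.71 CPM, −2.74 ± 0.36, edgeR adjusted p = 1.15e-05). Adcy5 was the member of the secretion list that rose (12.9 to 17.2 against 3.47 to 4.55 CPM, 1.85 ± 0.19, edgeR adjusted p = 1.21e-06). Granule proteins and prohormone processing genes were mixed, with 2 rises and 5 falls of 11. Chgb (chromosome 3, 125428260 to 125441594), chromogranin B of the granule matrix, was 303, 332, 381, 435 and 319.8 CPM in Sham and 650.4, 658 and 822 in severe Px, every one higher (1 ± 0.14, edgeR adjusted p = 2.25e-05). Scg2, secretogranin II (924 to 1065 against 1646 to 2127 CPM, −0.94 ± 0.16), and Pcsk2, a prohormone convertase (1808 to 2057 against 3050 to 4272 CPM, −0.90 ± 0.18), fell (edgeR adjusted p of 0.000603 or below). By library totals Chgb was near level (0.03, 0.918) and 8 of the 11 fell.

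**Figure D3:**
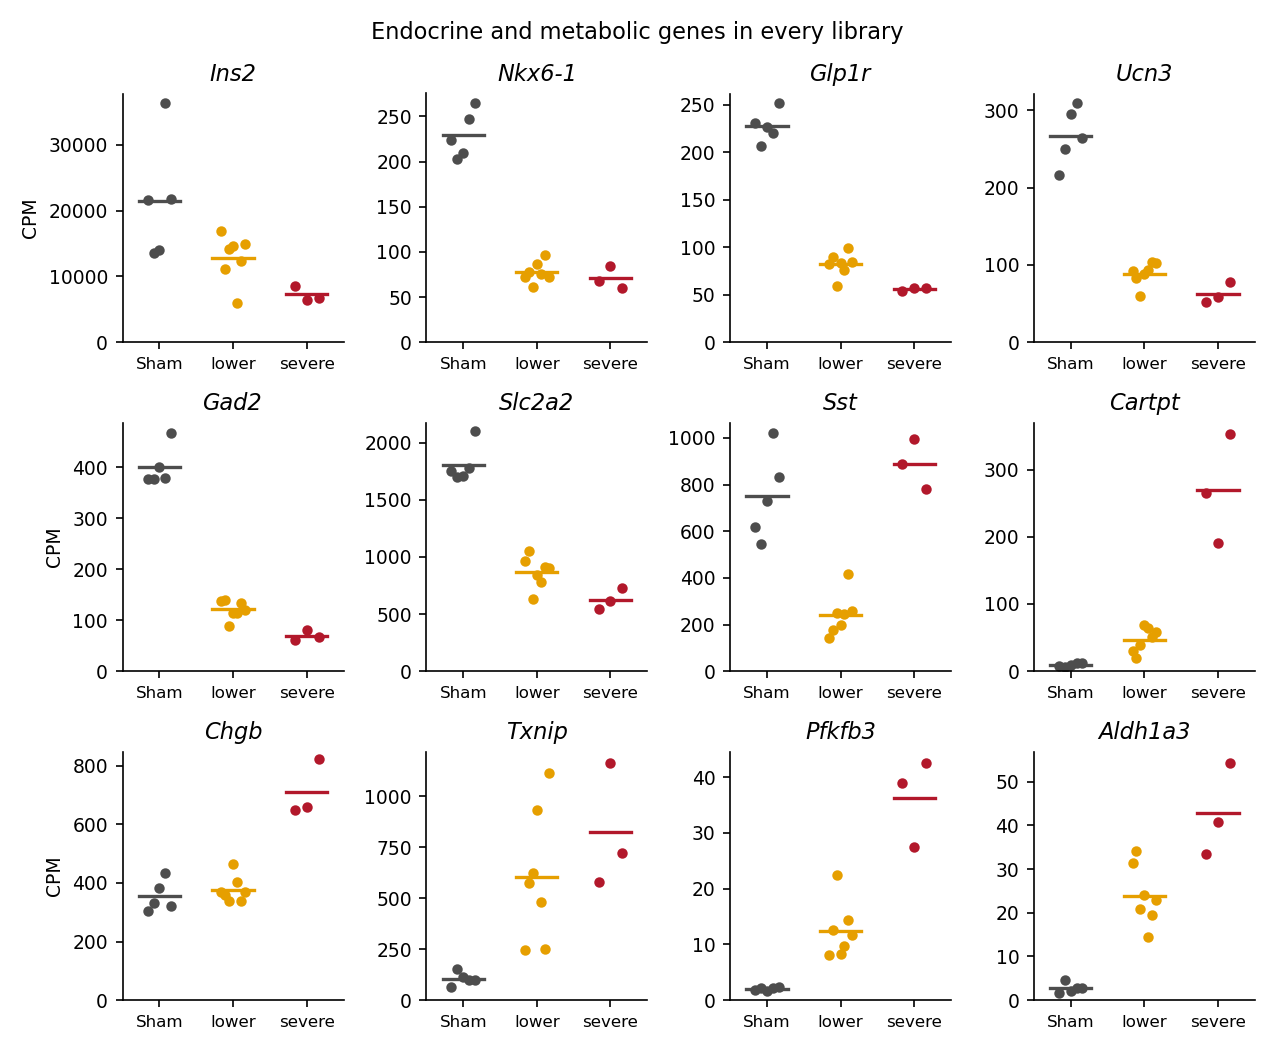
CPM of 12 genes in every library of Sham (n = 5), lower-glucose Px (n = 7) and severe Px (n = 3), with 1 point per library, a line at the group mean and a separate linear axis for each gene. Ins2, Nkx6-1, Glp1r, Ucn3, Gad2 and Slc2a2 are low in severe Px, Txnip, Pfkfb3, Aldh1a3, Cartpt and Chgb are high, and Sst is at Sham level in severe Px and below it in lower-glucose Px.

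Genes that beta cells normally keep silent (disallowed genes) rose in 21 of 22 tested, with 1 fall and a median of 2.18. Ldha, lactate dehydrogenase A, was 2.69, 4.1, 4.56, 4.19 and 2.76 CPM in Sham and 25.2, 32.4 and 27 in severe Px (2.94 ± 0.39, edgeR adjusted p = 1.4e-05). Slc16a1, the lactate and pyruvate transporter MCT1, was 0.581, 1.37, 1.45, 1.07 and 1.09 against 8.9, 7.52 and 6.65 (2.78 ± 0.25, edgeR adjusted p = 3.87e-07). Hk1, a hexokinase of high glucose affinity, was 8.03, 12.1, 13.8, 12.8 and 10.3 against 54.8, 45.2 and 47.5 (2.1 ± 0.17, edgeR adjusted p = 1.88e-07). None of these 3 genes overlapped between the groups. Zfp36l1, an RNA-binding protein that promotes mRNA decay (2.49), and Ndrg2, a member of the alpha/beta hydrolase fold family (2.83), rose as well (edgeR adjusted p of 6.72e-08 or below). Zdhhc9, a palmitoyltransferase, was the member that fell (47.8 to 53.2 against 60.4 to 93.5 CPM, −0.63 ± 0.18, edgeR adjusted p = 0.0063), and not by granule scaling (−0.18, 0.305). Other tissues express disallowed genes, and the acinar and stromal markers that rose in the same libraries are given further on.

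Among progenitor and dedifferentiation genes 6 of 9 tested rose and 1 fell (median 1.58). Aldh1a3, a retinoic acid synthesizing enzyme known as a mark of failing beta cells, was 1.69, 4.66, 2.06, 2.72 and 2.76 CPM in Sham and 33.4, 40.9 and 54.3 in severe Px (3.95 ± 0.30, edgeR adjusted p = 9.64e-08). Myc, a growth-promoting transcription factor, was 1.06, 1.92, 2.72, 1.96 and 1.9 against 14.6, 15.3 and 14.3 (2.94 ± 0.29, edgeR adjusted p = 1.05e-06). Every severe Px value of both genes lay above all Sham values. Gast, gastrin, normally silent in the adult islet, was low throughout (1.11, 0.783 and 2.27 CPM against 0.307 to 0.862 in Sham, 1.15 ± 0.45, edgeR adjusted p = 0.0385). Its call was lost without severe Px replicate 19 (0.60, 0.327) or Sham replicate 23 (1.07, 0.0735), 24 (1.15, 0.0599) or 25 (0.98, 0.0834), with no filter on low counts (1.15, 0.0505), by limma voom (1.06, limma adjusted p = 0.0707), with the acinar score (2.13, 0.126) and by library totals (0.22, 0.724). Neurog3, the master factor of endocrine progenitors, was 0.116, 0.13 and 0.0541 CPM in severe Px and 0 to 0.134 in Sham, too low to be tested. Tnfrsf11b, osteoprotegerin, a decoy receptor, fell (19.3 to 25.5 against 84.9 to 109 CPM, −2.04 ± 0.20, edgeR adjusted p = 7.1e-07).

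Genes known to respond to carbohydrate through the glucose-sensing factor ChREBP were higher in 9 of 16 tested and lower in 1 (median 0.53). Txnip, the glucose-induced thioredoxin inhibitor, was 62.7, 155, 112, 99.1 and 98.5 CPM in Sham and 580, 1164 and 724 in severe Px (2.96 ± 0.43, edgeR adjusted p = 3.03e-05). Acacb, acetyl-CoA carboxylase 2, which controls fatty acid entry into mitochondria, was 2.54, 3.69, 2.76, 1.29 and 1.61 against 42.2, 53.4 and 16.7 (3.97 ± 0.39, edgeR adjusted p = 8.68e-07). Every severe Px value of both genes lay above all Sham values. Klf10, a glucose-induced repressor, rose (35.7 to 41.6 against 14.8 to 19.3 CPM, 1.18 ± 0.12), and Bhlhe41, a clock-linked repressor, fell (24.7 to 27.2 against 36.9 to 55.6 CPM, −0.83 ± 0.13, edgeR adjusted p of 7.83e-05 or below for both). By library totals 4 of the 16 rose and 4 fell, with the acinar score 3 rose and 2 fell, and Txnip was not called with that score (2.06, 0.107) nor Klf10 by totals (0.17, 0.577).

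Other glucose-handling enzymes showed large single changes. G6pc, the liver-type glucose-6-phosphatase that releases free glucose (chromosome 10, 89285855 to 89296213) and is in none of the lists used here, was 0.211, 0.101, 0.57, 0.268 and 0.345 CPM in Sham and 11.1, 11.6 and 11.1 in severe Px (5.19 ± 0.48, edgeR adjusted p = 4.99e-07). Pfkfb3, the kinase that makes the glycolysis activator fructose 2,6-bisphosphate (chromosome 17, 70684134 to 70713726), was 1.85, 2.23, 1.67, 2.1 and 2.3 against 38.9, 27.4 and 42.5 (4.16 ± 0.29, edgeR adjusted p = 5.51e-08). Neither gene overlapped between the groups. Hk2, hexokinase 2, rose (8.27 to 19 against 0.423 to 1.75 CPM, 3.68 ± 0.54, edgeR adjusted p = 3.13e-05, but 2.78 and 0.0758 with the acinar term). Pfkfb2, the isoform of the islet and heart, fell (86.3 to 92.4 against 205 to 255 CPM, −1.38 ± 0.14), as did the neuronal and endocrine enolase Eno2 (5.04 to 6.11 against 8.55 to 19.2 CPM, −1.28 ± 0.24, edgeR adjusted p of 0.00032 or below). Over the glycolysis and pyruvate list 9 of 24 (37.5%) rose and 3 (12.5%) fell, with a median of 0.36, by totals 3 and 11, and with the acinar score 1 and 3.

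The start regions of Pfkfb3 and of Tph1, the serotonin gene described further on, are shown because both genes rose in severe Px against Sham and against lower-glucose Px and their promoters hold one of the searched motifs. They were picked after their values were seen. Each is the 250 bases before the RefSeq start site in build GRCr8, 5′ to 3′ on the gene's strand, chr17:71944683-71944932 (plus strand) for Pfkfb3 and chr1:106314629-106314878 (minus strand) for Tph1. Capitals mark CACGTG, the E-box core of the carbohydrate response element, 42 bases before the start of Pfkfb3, and TGAGTCA, the reverse complement of the AP-1 motif TGACTCA, 199 bases before the start of Tph1.
Pfkfb3: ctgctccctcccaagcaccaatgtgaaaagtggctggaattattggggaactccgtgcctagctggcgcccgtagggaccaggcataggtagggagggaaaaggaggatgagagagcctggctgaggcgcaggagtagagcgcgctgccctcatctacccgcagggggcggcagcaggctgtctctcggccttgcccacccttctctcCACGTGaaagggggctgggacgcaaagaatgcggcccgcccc
Tph1: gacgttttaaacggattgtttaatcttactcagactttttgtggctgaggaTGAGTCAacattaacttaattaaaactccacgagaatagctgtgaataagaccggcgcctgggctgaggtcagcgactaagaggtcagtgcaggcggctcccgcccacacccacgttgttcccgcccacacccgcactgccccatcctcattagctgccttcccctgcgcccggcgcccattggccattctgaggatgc

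Motif shares are given as a description. RefSeq promoters (250 bases before to 50 after the start) were matched for 133 of 183 named genes, 2 of them by synonym. CACGTG, which reads the same on both strands, stood in 8 of 78 promoters of named genes that rose (10.3%), 6 of 48 that fell (12.5%) and 2148 of all 33469 promoters (6.42%). A perfect pair of CACGTG copies 5 bases apart, each of which also counts as CACGTG, was in 0 of the 133 and in 1 promoter of all. Pairs with mismatches were not searched, so this count does not show whether a promoter holds a carbohydrate response element. CACGTG was in 0 of the 7 named genes not called. TGACTCA on either strand was in 3 of 78 that rose (3.85%), 1 of 48 that fell (2.08%), 1 of 7 not called and 1550 of all (4.63%). A match describes letters in this window and no binding.

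Of nuclear respiratory chain genes 17 of 23 tested rose and none fell (median 0.54), and of the mitochondrially encoded genes none of 13 rose and 3 fell (23.1%, near the 25.5% of all genes; median −0.26). Ndufb3, a complex I subunit, rose (11.3 to 16.7 against 4.91 to 7.29 CPM, 1.35 ± 0.18), as did Cox6c, a cytochrome oxidase subunit (75.1 to 90.0 against 30.5 to 42.8 CPM, 1.1 ± 0.15, edgeR adjusted p of 1.5e-05 or below). Mt-nd5, a complex I subunit encoded in the mitochondrion, was 2649, 2834, 2712, 2267 and 2537 CPM in Sham and 1367, 1403 and 1526 in severe Px, all lower (−0.86 ± 0.17, edgeR adjusted p = 0.000427). Gpd2, the mitochondrial glycerol phosphate shuttle enzyme that beta cells use, fell (30.7 to 35.6 against 62.5 to 79.6 CPM, −1.03 ± 0.10, edgeR adjusted p = 1.18e-06), in a shuttle and TCA cycle list with 6 rises and 2 falls of 16. By library totals no nuclear subunit rose and 9 fell, Ndufb3 (0.32, 0.383) and Cox6c (0.11, 0.735) among those not called, and with the acinar score 2 rose and 1 fell.

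Cytosolic ribosomal protein genes rose in 27 of 29 tested (median 1.05), for example Rpl23 of the large subunit (211 to 321 against 39.5 to 69 CPM, 2.27 ± 0.19, edgeR adjusted p = 2.48e-07). The rise was tied to the scale, with 2 rises and 1 fall by library totals and 4 rises with the acinar score. Many ribosomal genes have processed copies that could share their reads.

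Stress genes did not move as one. Unfolded protein response genes had 6 rises and 7 falls of 23, both shares near the background. Hspa5, the chaperone BiP, was 1556, 1450, 2305, 2085 and 2415 CPM in Sham and 1624, 1542 and 1719 in severe Px, inside the Sham range (−0.27 ± 0.19, edgeR adjusted p = 0.246). Ddit3, the death-linked factor CHOP, overlapped as well (4.43 to 6.49 against 4.89 to 7.28 CPM, −0.27 ± 0.20, edgeR adjusted p = 0.254); both genes were lower by library totals (−1.25, 0.000343, and −1.26, 0.00454) and turned to 0.17 and 0.13 by granule scaling, not called. Edem1, which helps to clear misfolded proteins, rose (91.5 to 198 against 41.6 to 59.2 CPM, 1.48 ± 0.21, edgeR adjusted p = 2.72e-05), but not with the acinar score (0.58, 0.281) or by totals (0.41, 0.0696). Wfs1, the wolframin that guards beta cell ER calcium (53.1 to 69.5 against 124 to 209 CPM, −1.49 ± 0.18), and Ern1, the sensor IRE1 (87.9 to 106 against 171 to 222 CPM, −0.96 ± 0.13), fell (edgeR adjusted p of 1.94e-05 or below).

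The integrated stress response list had 6 rises (35.3%, near the 32.2% of all genes tested) and 2 falls (11.8%) of 17. Atf3, a stress-induced transcription factor, was 1.06, 3.34, 2.15, 1.87 and 1.84 CPM in Sham and 27.3, 18.6 and 33 in severe Px, each above all Sham values (3.67 ± 0.39, edgeR adjusted p = 1.96e-06). Sesn2, a sestrin that restrains growth signalling, fell (89.3 to 98.7 against 150 to 191 CPM, −0.80 ± 0.14, edgeR adjusted p = 0.000122). Immediate early genes, induced within minutes of stimulation, rose in 14 of 17 with no fall (median 1.67). Jun, a partner in AP-1, was 12.9, 16.3, 17.9, 15 and 16.4 CPM in Sham and 87, 102 and 78.9 in severe Px (2.51 ± 0.13, edgeR adjusted p = 9.51e-09), and Klf4, a zinc finger factor, ranged 25.3 to 32.9 against 5.49 to 7.8 (2.1 ± 0.20, edgeR adjusted p = 8.08e-07). By library totals 7 of these 17 rose and 3 fell, and with the acinar score 5 rose.

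Antioxidant genes rose in 12 of 19 and fell in 1. Gpx1, glutathione peroxidase 1, was 8.67, 10.4, 12.9, 14.8 and 9.94 CPM in Sham and 92.5, 139.6 and 78.2 in severe Px (3.19 ± 0.31, edgeR adjusted p = 7.39e-07). Sod3, the extracellular superoxide dismutase, was 1.06, 4.05, 2.41, 2.54 and 3.33 against 17.9, 19.2 and 16.9 (2.75 ± 0.28, edgeR adjusted p = 1.4e-06), again with no overlap. Gclm, the modifier subunit of glutathione synthesis, fell (29.5 to 35.2 against 47.6 to 55.2 CPM, −0.71 ± 0.11, edgeR adjusted p = 5.8e-05). With the acinar score 4 of the 19 rose. Hypoxia response genes had 6 rises and 4 falls of 14, and Vegfa, the growth factor for islet capillaries, fell (149 to 156 against 244 to 434 CPM, −1.14 ± 0.18, edgeR adjusted p = 8.04e-05), though not with the acinar score (−0.60, 0.179).

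Tph1 rose and Gad2 fell, in a list with changes both ways. Tph1 (chromosome 1, 102669868 to 102699442), which makes serotonin and is known to rise in beta cells in pregnancy, was 0, 0.203, 0, 0.0892 and 0.0575 CPM in Sham and 2.85, 1.96 and 3.73 in severe Px (5.25 ± 0.59, edgeR adjusted p = 2.97e-06). The Sham values rest on 7 counts in all, so this fold is poorly bounded, and it was 6.07 without Sham replicate 24. Gad2 (chromosome 17, 89171250 to 89238040), which makes GABA in beta cells, was 376, 378, 401, 379.5 and 467 CPM in Sham and 61.9, 80.8 and 66.2 in severe Px (−2.52 ± 0.16, edgeR adjusted p = 3.4e-08), less than the lowest Sham value in every severe Px library. Ddc, the next enzyme of serotonin synthesis, fell (74.9 to 76.8 against 129 to 154 CPM, −0.90 ± 0.13, edgeR adjusted p = 3.37e-05). Over the serotonin, GABA and prolactin receptor list 3 of 10 rose and 6 fell, and with granule scaling or the acinar score 3 fell.

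Of the delta cell genes, Sst was not called and Cartpt rose. Sst, somatostatin (chromosome 11, 80358211 to 80359444), was 616, 544, 731, 1022 and 831 CPM in Sham and 890.1, 994 and 783 in severe Px, inside the Sham range (0.25 ± 0.27, edgeR adjusted p = 0.453). Its estimate changed sign by library totals (−0.75, edgeR adjusted p = 0.0113) and in the fit with the acinar score (−0.44, 0.589), and it was called higher by granule scaling (0.71, 0.0409). Cartpt (chromosome 2, 30125249 to 30127269), the CART peptide of delta and some beta cells, was 8.35, 5.52, 8.99, 11.9 and 11.7 CPM in Sham and 265, 191 and 353 in severe Px (4.86 ± 0.36, edgeR adjusted p = 9.63e-08). The lowest severe Px value is far above the highest Sham value. Sstr5, a somatostatin receptor of beta cells, was among the largest falls (6.18, 6.93, 7.37, 9.63 and 7.88 CPM in Sham, 0.291, 0.696 and 0.432 in severe Px, −3.96 ± 0.39, edgeR adjusted p = 8.9e-07). Delta cell markers rose in 3 of 7 and fell in 1.

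Alpha cell markers rose in 5 of 11 and fell in 1. Loxl4, a matrix crosslinking enzyme also made by alpha cells, was 0.106, 0.354, 0.351, 0.178 and 0.172 CPM in Sham and 6.23, 8.48 and 2.87 in severe Px (4.61 ± 0.37, edgeR adjusted p = 1.37e-07). Slc7a2, a transporter of cationic amino acids, fell (189 to 214 against 513 to 717 CPM, −1.56 ± 0.13, edgeR adjusted p = 1.83e-07). By library totals 1 marker rose and 4 fell. PP and ghrelin cell markers had 3 rises, Ppy and Pyy among them, and 1 fall of 5.

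Insulin and growth factor signalling genes had 6 rises (35.3%) and 4 falls (23.5%) of 17, near the 32.2% and 25.5% of all genes tested. The 2 members that follow are those with the smallest p among the falls. Igf1r, the IGF-1 receptor, was 62.8, 57.9, 74.2, 69.3 and 86.6 CPM in Sham and 23.4, 22 and 23.7 in severe Px (−1.61 ± 0.14, edgeR adjusted p = 2.27e-07), and Foxo1, the factor that insulin signalling keeps out of the nucleus, ranged 23.1 to 26.3 against 55.6 to 74.4 (−1.35 ± 0.11, edgeR adjusted p = 1.32e-07). Both fell without overlap. Notch and TGF-beta genes rose in 19 of 23 and fell in 3. The Notch ligand Jag1 rose (41.2 to 66.1 against 8.68 to 11.7 CPM, 2.47 ± 0.15, edgeR adjusted p = 2.4e-08), and the ligand Tgfb2 fell (19.8 to 28.6 against 43.9 to 52 CPM, −1.05 ± 0.14, edgeR adjusted p = 1.12e-05). By library totals 6 of the 23 rose.

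Cell cycle genes rose in 10 of 25 and fell in 3. Mki67, the proliferation antigen, was 5.18, 7.74, 5.4, 5.71 and 8.05 CPM in Sham and 13.5, 14.4 and 11.5 in severe Px (1.04 ± 0.25, edgeR adjusted p = 0.00254), and Mcm3, a part of the replicative helicase, 1.48, 2.33, 2.19, 2.81 and 2.13 against 7.33, 7.13 and 6.87 (1.69 ± 0.29, edgeR adjusted p = 0.00012). All severe Px values were above Sham for both. By library totals neither was called (0.01, 0.987, and 0.70, 0.117) and 1 of the 25 rose and 7 fell. Ccne2, cyclin E2 (−1.14 ± 0.19), and Cdk4, the kinase that beta cells need to divide (−0.45 ± 0.09), fell (edgeR adjusted p of 0.000507 or below), though with the acinar score neither did (−0.62, 0.176, and −0.40, 0.11), nor Cdk4 by granule scaling (−0.05, 0.821). The cell cycle inhibitor Cdkn1a, p21, rose (36.5 to 49.1 against 8.72 to 15.1 CPM, 1.73 ± 0.31, edgeR adjusted p = 0.000197), not with the acinar score (1.37, 0.143) or by totals (0.73, 0.0549), and its list had 4 rises and 2 falls of 12.

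Lipid genes were mixed. Of fatty acid synthesis and handling genes 10 of 16 rose (62.5%) and 2 fell, and of oxidation genes 7 of 15 (46.7%) and 3. Of cholesterol synthesis genes 7 of 20 rose (35%, near the 32.2% of all genes tested) and 3 fell. Fabp4, a fatty acid carrier of fat cells, capillaries and macrophages, was 6.5, 9.57, 6.41, 7.05 and 5.06 CPM in Sham and 40.1, 67.4 and 71.8 in severe Px (3.11 ± 0.24, edgeR adjusted p = 1.18e-07). Acly, which makes cytosolic acetyl-CoA from citrate, was 1284, 1214, 1420, 1519 and 1563 against 731, 668 and 765 (−0.96 ± 0.15, edgeR adjusted p = 5.08e-05). Fabp4 was higher and Acly lower in all 3 libraries. Cpt2, of mitochondrial fatty acid import (−0.76), and Lss, lanosterol synthase (−0.61), fell, and Cyp51, which demethylates lanosterol (0.51), rose (edgeR adjusted p of 0.00114 or below). By granule scaling Cpt2 (−0.33, 0.0553) and Lss (−0.17, 0.294) were not called, Cyp51 was not with the acinar score (0.42, 0.207) and turned to −0.50 by totals, and totals gave 5 rises and 8 falls for synthesis, 1 and 8 for oxidation and 0 and 11 for cholesterol.

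Ion channels were mostly lower. Of voltage-gated and other channels 14 of 20 fell and 2 rose (median −0.79). Kcnip1, a potassium channel partner, was 19, 20.3, 25.6, 25.3 and 25.4 CPM in Sham and 4.07, 5.3 and 5.57 in severe Px (−2.21 ± 0.20, edgeR adjusted p = 3.3e-07), and the calcium-activated BK channel Kcnma1 168, 173, 197, 182 and 249 against 63.7, 69.4 and 81.9 (−1.43 ± 0.17, edgeR adjusted p = 6.1e-06). Ano1, a calcium-activated chloride channel, rose (41.6 to 64.4 against 8.3 to 13.7 CPM, 2.28 ± 0.23, edgeR adjusted p = 1.09e-06). By granule scaling, and with the acinar score, 7 channels fell.

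Axon guidance and adhesion genes fell in 10 of 21 and rose in 5. Slit1, a secreted guidance cue, was 79.8, 66.2, 79.6, 105 and 97.2 CPM in Sham and 11.2, 17.5 and 9.51 in severe Px (−2.74 ± 0.21, edgeR adjusted p = 1.04e-07). Dscam, a neuronal adhesion molecule, was 6.82, 6.02, 8.21, 5.89 and 7.88 against 0.873, 1.09 and 0.757 (−2.93 ± 0.25, edgeR adjusted p = 2.92e-07). Both were far below Sham in all 3 libraries, and the semaphorin Sema3c was above it (21.7 to 28.3 against 4.6 to 7.5 CPM, 2 ± 0.21, edgeR adjusted p = 1.32e-06). Circadian clock genes, with 1 rise and 5 falls of 17, were near or under the background.

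Exocrine genes were higher in severe Px. Acinar cell markers rose in 29 of 31 (median 3.84), and their summed level was 406800 to 813800 CPM in severe Px and 7516 to 132700 in Sham, with no marker at 0 in every Sham library. Ctrb1, chymotrypsinogen B, was 601, 1958, 7590, 1497 and 1782 CPM in Sham and 211400, 155400 and 71670 in severe Px (5.77 ± 0.78, edgeR adjusted p = 1.53e-05). The trypsinogen genes Prss2 (5.97), Try5 (5.95) and Prss3 (5.75) rose as well (edgeR adjusted p of 5.25e-05 or below), and as near-identical copies they may share reads. Sham replicate 25 had the highest Sham value of each, and without it the differences were larger (Ctrb1 6.65, Prss2 6.91, Try5 7.31 and Prss3 6.84). Spink1, the trypsin inhibitor (4.88 ± 0.63), and Rbpjl, an acinar transcription factor (4.11 ± 0.53), also rose (edgeR adjusted p of 1.05e-05 or below), but neither was called with the acinar score (1.39, 0.0698, and 1.64, 0.166), which contains both genes.

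Duct cell markers rose in 14 of 17 (974.3 to 1143 CPM summed against 444.2 to 636.8 in Sham). Slc4a4, the bicarbonate cotransporter of duct cells, was 7.93, 9.57, 8.29, 7.05 and 10.8 CPM in Sham and 26.8, 23.4 and 22.4 in severe Px (1.47 ± 0.17, edgeR adjusted p = 3.93e-06), and Anxa1, annexin A1, 5.87, 17.2, 7.46, 6.15 and 8.16 against 81.1, 82.9 and 89.3 (3.24 ± 0.30, edgeR adjusted p = 4.65e-07). All severe Px values of both lie above Sham. With library totals 7 duct markers rose and 3 fell, and Slc4a4 was not called (0.44, 0.179), and with the acinar score 6 rose. Reg3b, an acute-phase lectin of injured acinar cells, was 1.11, 254, 31, 35 and 6.72 CPM in Sham and 131, 143 and 967 in severe Px, with overlap through Sham replicate 24 (2.66 ± 1.03, edgeR adjusted p = 0.0374). It was not called without severe Px replicate 19 (1.06, 0.432) or Sham replicate 25 (2.48, 0.0735), 26 (2.5, 0.0727) or 27 (2.36, 0.068), by totals (1.76, 0.111), with the acinar score (2.29, 0.55) or with the 2 groups alone (2.64, 0.0822). Without Sham replicate 24 the difference was 4.48, called. Its list of acute acinar and Reg genes had 5 rises and no fall of 7.

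Stromal and vascular genes rose. Fibroblast, stellate and matrix genes rose in 21 of 21 (median 2.68), with a summed level of 2626 to 4046 CPM in severe Px and 594.4 to 1040 in Sham. Dcn, the matrix proteoglycan decorin, was 14.7, 22.5, 12.9, 14.8 and 16.8 CPM in Sham and 105, 143 and 191 in severe Px (3.17 ± 0.27, edgeR adjusted p = 2.48e-07). Tagln, transgelin of contractile cells, was 5.76, 7.44, 7.02, 10.5 and 6.38 against 86.5, 62.1 and 114 (3.56 ± 0.32, edgeR adjusted p = 3.85e-07). Endothelial markers rose in 8 of 11 (1163 to 1437 against 745.2 to 1148 CPM summed), among them the receptors Tek (1.51 ± 0.17) and Tie1 (1.57 ± 0.21, edgeR adjusted p of 1.2e-05 or below). By library totals no endothelial marker rose and 3 fell, with Tek at 0.56 (0.091) and Tie1 at 0.60 (0.0562). Schwann and neural markers rose in 5 of 7.

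Macrophage markers rose in 18 of 18 (median 3.91), from a summed level of 33.98 to 76.61 CPM in Sham to 873.6 to 1442 in severe Px. Mmp9, among the 18, was not called without severe Px replicate 15 (2.45, 0.379, leaving 17). C1qb, a complement chain made by tissue macrophages, was 1.69, 2.23, 2.41, 3.48 and 1.44 CPM in Sham and 25.4, 25.8 and 28.1 in severe Px (3.54 ± 0.27, edgeR adjusted p = 1.01e-07). Adgre1, the macrophage antigen F4/80, was 0.898, 1.52, 1.32, 0.936 and 0.977 against 14.8, 10.9 and 10.5 (3.4 ± 0.27, edgeR adjusted p = 1.47e-07). The severe Px libraries were alike in these 2 genes and above all Sham. Lymphocyte markers rose in 8 of 10, from 8.335 to 15.43 CPM summed to 73.78 to 95.47, with the granzyme gene at 0 in all Sham libraries. Ptprc, the leukocyte antigen CD45, rose (12.6 to 24.1 against 1.26 to 2.58 CPM, 3.36 ± 0.53), as did Cd4, which rat macrophages also carry (42.8 to 60.1 against 6.61 to 12.7 CPM, 2.55 ± 0.33, edgeR adjusted p of 6.51e-05 or below).

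Immune effector genes rose with them. Antigen presentation genes rose in 17 of 18 (median 2.11), interferon response genes in 17 of 22 (2), complement genes in 14 of 15 (3.2), and inflammatory signalling genes in 20 of 23 with 1 fall (3.23). B2m, the light chain of class I molecules, was 189, 199, 202, 223 and 210.2 CPM in Sham and 646, 742 and 982 in severe Px (1.95 ± 0.21, edgeR adjusted p = 1.64e-06). C4b, a complement component, was 1.37, 2.33, 1.54, 2.94 and 1.72 against 27, 32.8 and 62.9 (4.36 ± 0.35, edgeR adjusted p = 1.5e-07). Both genes were separate from Sham. Irf8, a factor of myeloid cells (2.92 ± 0.35), and Oasl, an antiviral protein (2.07 ± 0.24), rose too (edgeR adjusted p of 5.55e-06 or below). The macrophage sums given above moved with these lists, and their part was not tested.

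Over all genes, in lists or not, the largest rises against Sham among genes of at least 5 CPM included Mmp9, Tdh, Adtrp, Cldn5, Mmp12, Prss2, Try5, Folr1, Ctrb1, Prss3 and Adgrf3. Tdh, threonine dehydrogenase, was 0.37, 1.16, 1.62, 0.58 and 0.402 CPM in Sham and 88.6, 99 and 47.1 in severe Px (6.52 ± 0.49, edgeR adjusted p = 1.01e-07). Adtrp, a regulator of coagulation and a fatty acid ester hydrolase, was 0, 0.101, 0.263, 0.0446 and 0.115 against 8.67, 12.1 and 4.05 (6.19 ± 0.59, edgeR adjusted p = 6.66e-07), and 6.9 without Sham replicate 25. Adgrf3, an orphan adhesion receptor, was 0.687, 0.911, 0.53, 1.38 and 1.21 against 57.7, 41.6 and 49.9 (5.72 ± 0.49, edgeR adjusted p = 2.58e-07). In these 3 genes Sham stays under 2 CPM and every severe Px library above 4. Folr1, the folate receptor alpha, was 0.159, 0.658, 2.06, 0.312 and 0.23 against 50.6, 47.9 and 33.7 (5.93 ± 0.53, edgeR adjusted p = 3.6e-07), and 6.98 without Sham replicate 25. Cldn5, the tight junction protein of vessels, was 0, 0.0506, 0.132, 0.134 and 0 against 6.11, 3.35 and 5.73, its Sham level resting on 7 counts (6.1 ± 0.65, edgeR adjusted p = 1.79e-06). The matrix metalloproteases Mmp9 and Mmp12 are given with the genes that vary within severe Px.

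The largest falls were Sstr5, Cntn3, Olfm4, Rasgef1c, Syt12, Grik3, Lingo3, Anks1b, Dscam, Lrrc55, Mmd2 and Adcy8. Cntn3, a neuronal contactin, was 19, 18.7, 17.6, 16.7 and 20.2 CPM in Sham and 0.64, 2.48 and 1.68 in severe Px (−3.5 ± 0.38, edgeR adjusted p = 2.06e-06). Syt12, a synaptotagmin of secretory vesicles, was 25.5, 23.9, 30.4, 26.6 and 26.1 against 2.21, 4 and 1.78 (−3.29 ± 0.28, edgeR adjusted p = 2.33e-07). Lrrc55, an accessory subunit of the BK channel, was 6.76, 6.33, 5, 5.53 and 6.78 against 0.698, 1.22 and 0.432 (−2.92 ± 0.27, edgeR adjusted p = 4.65e-07). Each severe Px value of these is under the lowest Sham value. Rasgef1c, a Ras exchange factor (−3.31), Grik3, a kainate receptor (−3.22), Anks1b, a synaptic scaffold (−2.96), and Mmd2, a membrane protein (−2.85), behaved alike (edgeR adjusted p of 1.94e-05 or below). Olfm4, a secreted glycoprotein, spread widely in Sham (87.2, 77.1, 29.8, 22.4 and 32.4 CPM against 4.31, 5.83 and 4.7, −3.32 ± 0.46, edgeR adjusted p = 1.82e-05) and was not called with the acinar score (−1.81, 0.0514). Lingo3 was lower in all 3 libraries (0.407, 3.39 and 0.865 CPM against 8.61 to 18.7, −3.02 ± 0.49), most so without severe Px replicate 15 (−4.34).

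Severe Px was also tested directly against lower-glucose Px, whose surgery was the same. These groups were formed from the glucose labels and differed in more than glucose. Summed fibroblast, stellate and matrix genes, for example, were 2626 to 4046 CPM in severe Px and 5174 to 10450 in lower-glucose Px. Glucose and cell make-up cannot be told apart in this comparison. Of 15661 genes 515 (3.29%) were higher in severe Px and 249 (1.59%) lower, together 764 (4.88%), and all 3 severe Px libraries lay above all 7 lower-glucose libraries in 845 genes (5.40%) and below them in 691 (4.41%). The 2 Px groups share the Sham libraries as controls, so their differences from Sham are set side by side only. Lower-glucose Px against Sham called 5257 rises (33.6%) and 4692 falls (30.0%), together 63.5%. The direct count is unstable: 270 without severe Px replicate 13, 378 without 15, 384 without 19, 468 without lower-glucose replicate 2, 142 by library totals (46 higher, 96 lower), 418 by granule scaling (139 higher, 279 lower) and 1351 by DESeq2 (677 higher, 674 lower). Of 39 named genes that differed, 18 kept their call whichever library was left out.

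Sugar metabolism genes were among the direct rises. G6pc in lower-glucose Px was 0.634 (lowest), 1 (median) and 2.5 (highest) CPM (3.15 ± 0.38, edgeR adjusted p = 0.000191; 5.19 severe and 2.04 lower-glucose Px against Sham), and Pfkfb3 8.03 (lowest), 11.7 (median) and 22.4 (highest) (1.54 ± 0.24, 0.00162; 4.16 and 2.62). Neither reached the lowest severe Px value. Acacb (1.5 ± 0.33, edgeR adjusted p = 0.0147) overlapped through severe Px replicate 19 and lost its call without replicate 13 (1.42, 0.0799) or 15 (1.15, 0.12), by library totals (edgeR adjusted p = 0.0769) and by granule scaling (1.34, 0.0578). By library totals Pfkfb3 was not called either (1.03, 0.0774). Txnip was not called (0.45 ± 0.40, edgeR adjusted p = 0.518, 247 (lowest), 575 (median) and 1112 (highest) CPM in lower-glucose Px). Of the carbohydrate-responsive list 5 of 16 were higher than in lower-glucose Px and 1 was lower, against 3.29% and 1.59% of all genes. Of fatty acid oxidation genes 3 of 15 were higher and none lower, and of cholesterol synthesis genes 5 of 20 and none.

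Delta cell genes separated the Px groups. Sst was 144 (lowest), 244 (median) and 416 (highest) CPM in lower-glucose Px, under every severe Px value (1.88 ± 0.25, edgeR adjusted p = 0.000436; 0.25 and −1.64 against Sham). Cartpt was 19.1 (lowest), 50.4 (median) and 68.3 (highest) (2.53 ± 0.30, edgeR adjusted p = 0.000191; 4.86 and 2.33 against Sham). Chgb was 338 (lowest), 368 (median) and 465 (highest) (0.91 ± 0.13, edgeR adjusted p = 0.000885; 1 and 0.09 against Sham), at 0.43 and 0.188 by library totals. For all 3 the lowest severe Px library exceeded the highest lower-glucose library. Delta cell markers were higher in severe than in lower-glucose Px in 3 of 7, against 3.29% of all genes tested. Tph1 was 0.344 (lowest), 0.573 (median) and 1.09 (highest) CPM (2.27 ± 0.43, edgeR adjusted p = 0.00608), and Gad2, at 87.8 (lowest), 121 (median) and 139.9 (highest), was lower in severe Px (−0.80 ± 0.14, edgeR adjusted p = 0.00415; −2.52 and −1.73 against Sham). Pyy was higher (0.94 ± 0.20, edgeR adjusted p = 0.0128), but not without severe Px replicate 15 (0.80, 0.088), by library totals (0.43, 0.239) or by granule scaling (0.71, 0.0948). Against lower-glucose Px Tph1 was not called by library totals (1.82, 0.0687).

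Beta cell identity genes, like most genes, were mostly not called between the Px groups. None of the 15 transcription factors passed, where 4.88% of all genes did, so few calls were to be expected in a list of this size. Nkx6-1 (−0.12 ± 0.14, edgeR adjusted p = 0.612) and Pdx1 (0.14 ± 0.14, 0.572) had estimates near 0. Ins1 (−0.38 ± 0.39, edgeR adjusted p = 0.576) and Ins2 (−0.82 ± 0.37, 0.199) did not pass either. Glp1r was lower in severe Px (−0.55 ± 0.13, edgeR adjusted p = 0.0198), 58.6 (lowest), 83.5 (median) and 99.4 (highest) CPM in lower-glucose Px, but the call was lost without severe Px replicate 13 (−0.52, 0.122), 15 (−0.55, 0.0751) or 19 (−0.56, 0.0666) and with the 2 groups alone (−0.54, 0.0625). Slit1 was lower with each library left out (24.2 (lowest), 30.3 (median) and 35.5 (highest) CPM in lower-glucose Px, −1.23 ± 0.19, edgeR adjusted p = 0.00145), and so was Lrrc55 (2.81 (lowest), 3.56 (median) and 4.26 (highest) CPM, −2.14 ± 0.26, 0.000191).

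**Figure D4:**
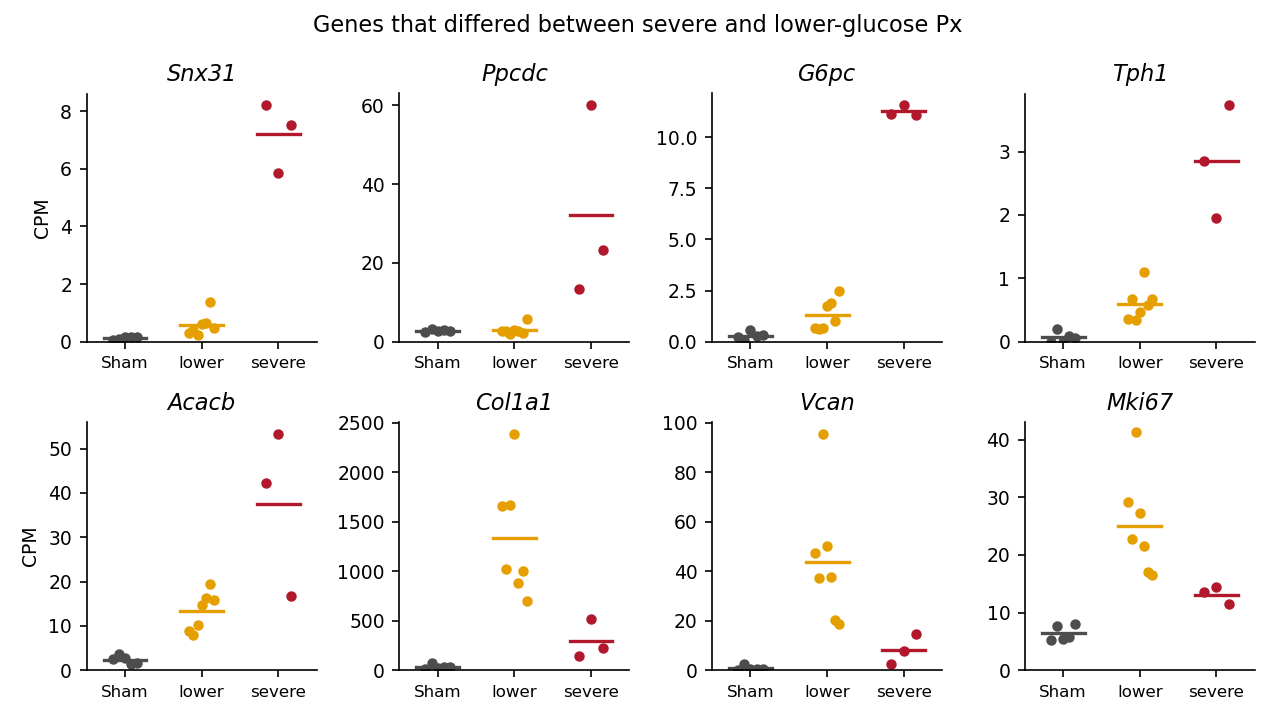
CPM of 8 genes that differed between severe and lower-glucose Px, in every library of Sham (n = 5), lower-glucose Px (n = 7) and severe Px (n = 3), with 1 point per library, a line at the group mean and a linear axis per gene. Snx31, Ppcdc, G6pc and Tph1 are highest in severe Px, Acacb overlaps through 1 library, and Col1a1, Vcan and Mki67 are lower in severe than in lower-glucose Px.

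The other large direct rises were Snx31, Ppcdc, Elfn1, Cntfr, Adgrf3, Serpina6 and Efcab6. Snx31, a sorting nexin (chromosome 7, 75309255 to 75364166), was 0.0528, 0.101, 0.175, 0.178 and 0.172 CPM in Sham, 8.21, 5.87 and 7.51 in severe Px and 0.241 (lowest), 0.472 (median) and 1.38 (highest) in lower-glucose Px (3.65 ± 0.37, edgeR adjusted p = 3.62e-05). Ppcdc, an enzyme of coenzyme A synthesis (chromosome 8, 62085547 to 62109166), was 2.43, 3.14, 2.81, 3.03 and 2.59 CPM in Sham, 13.4, 60.1 and 23.2 in severe Px and 1.89 (lowest), 2.67 (median) and 5.8 (highest) in lower-glucose Px (3.47 ± 0.34, edgeR adjusted p = 3.52e-05). Its lower-glucose level was near Sham (0.05 against Sham) and the difference was 2.65 without severe Px replicate 15, the highest. Serpina6, corticosteroid-binding globulin (2.64 ± 0.26), Elfn1, a synaptic organizer (3.39 ± 0.42), Cntfr, the receptor of ciliary neurotrophic factor (2.98 ± 0.46), Efcab6 (2.58 ± 0.26) and Adgrf3 (2.7 ± 0.37) also held whichever library was left out (edgeR adjusted p of 0.00152 or below). Serpina6 was 29, 19.8 and 30.8 CPM in severe Px, 4.76 to 8.25 in Sham and 2.03 to 6.68 in lower-glucose Px, with severe Px the highest. Against Sham, Serpina6 (2.04 ± 0.28) was not called with the acinar score (0.84, 0.241), and Cntfr (1.5 ± 0.49) turned to −0.45 with it and was not called by library totals (0.51, 0.247).

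Matrix genes were among the largest direct falls. Col1a1, the main chain of type I collagen, was 704 (lowest), 1026 (median) and 2391 (highest) CPM in lower-glucose Px, 146, 515 and 225 in severe Px and 13.3, 74.9, 23.9, 36.3 and 31.7 in Sham. Severe Px thus lay between the groups, above Sham (3.04 ± 0.50) and below lower-glucose Px (−2.17 ± 0.54, edgeR adjusted p = 0.0293), with no overlap to either. With the acinar score Col1a1 was called in neither comparison (3.4, 0.0549 against Sham, and −2.1, 0.0555 against lower-glucose Px). Vcan, versican (−2.4 ± 0.61), Adam12, a metalloprotease of fibroblasts (−2.48 ± 0.50), Cthrc1, a collagen regulator (−2.05 ± 0.43), and the collagens Col7a1 (−2.12 ± 0.44) and Col12a1 (−2.05 ± 0.41) were likewise under every lower-glucose library (edgeR adjusted p of 0.0342 or below against lower-glucose Px). Vcan overlapped Sham through Sham replicate 24, and the other 4 lay above it. Against Sham their differences were 3.18, 3.06, 2.68, 1.56 and 1.8 (edgeR adjusted p of 0.00798 or below). Over the fibroblast list 6 of 21 were lower than in lower-glucose Px, against 1.59% of all genes tested. These direct calls rest on few libraries. Col1a1 (without severe Px replicates 13 or 19 or lower-glucose replicate 2) and Vcan (without severe Px 13 or 15 or lower-glucose 2 or 10) each lost the call in several fits, Vcan also with the acinar score (−1.98, 0.0755) and by library totals (−2.9, 0.0603). Adam12, Cthrc1 and Col7a1 lost it without severe Px 13 or 19. Without severe Px replicate 13 none of the 6 passed (Col1a1 −1.84, 0.154, Vcan −1.97, 0.157, Adam12 −2.13, 0.0637, Cthrc1 −1.89, 0.0835, Col7a1 −1.91, 0.078, and Col12a1 −1.87, 0.0688). Against Sham, Col1a1 was 2.37 and Adam12 2.47 without severe Px replicate 15, Vcan 2.5 without replicate 19 and 4.11 without Sham replicate 24, and Col7a1 was not called without replicate 15 (1.23, 0.0597). By library totals neither Col7a1 (0.54, 0.384) nor Col12a1 (0.83, 0.116) was called against Sham.

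Some proliferation genes were also lower than in lower-glucose Px. Mki67 was 16.6 (lowest), 22.7 (median) and 41.3 (highest) CPM there (−0.94 ± 0.25, edgeR adjusted p = 0.0414; 1.04 and 1.97 against Sham), above all severe Px values, but the call was lost without any 1 severe Px library (13: −0.94, 0.143; 15: −1.01, 0.102; 19: −0.85, 0.145) and without lower-glucose replicates 2, 4 or 10, and was lost with the acinar score (−0.79, 0.101), by library totals (−1.53, 0.0596), by granule scaling (−1.21, 0.0636) and with the 2 groups alone (−0.92, 0.0771). Cell cycle genes were lower in severe Px in 5 of 25, against 1.59% of all genes tested. Lower-glucose Px against Sham had 20 rises and 4 falls in this list. Mcm3 was lower without passing (−0.92 ± 0.27, edgeR adjusted p = 0.0613). Ubd, the ubiquitin-like FAT10, was 0.0582 to 1.41 CPM in severe Px and 1.48 (lowest), 8.69 (median) and 35 (highest) in lower-glucose Px (−3.66 ± 0.99, edgeR adjusted p = 0.0441), with the call lost without severe Px replicate 13 (−3.13, 0.176), 15 (−3.79, 0.133) or 19 (−4.24, 0.0945), without lower-glucose replicates 2, 4 or 11, with the acinar score (−2.76, 0.122), by both other scalings, by limma voom and with the 2 groups alone, and a difference of −2.93 without lower-glucose replicate 8. Against Sham, where it rests on 8 counts, it missed the threshold (3.29 ± 1.42, edgeR adjusted p = 0.0576). It was called higher than Sham by granule scaling (3.67, 0.0379), with the acinar score (8.13, 0.0305), without severe Px replicate 13 (3.82, 0.0333) and by DESeq2 (3.37, DESeq2 adjusted p = 0.012).

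The median SD of log2 CPM over 5684 genes was 0.138 in the 3 severe Px libraries and 0.172 in the 5 Sham libraries. The groups differ in number and depth, so these 2 values do not rank their spread. Distances between severe and lower-glucose Px libraries began at 0.379, inside the 0.364 to 0.398 within severe Px. Among the widest ranges for genes of at least 20 CPM were those of Gpnmb, Mmp12, Reg3b, Ctsk and Cd163, given as a description. Gpnmb, a glycoprotein of lipid-laden macrophages and osteoclasts, was 61.5, 516 and 92.8 CPM, Mmp12, macrophage elastase, 17.5, 137 and 35.4, and Ctsk, cathepsin K, 9.95, 65.7 and 21.2. These 3 genes were highest in replicate 15, and without it their differences from Sham were 3.75 (from 5.29 ± 0.79), 4.82 (from 6.09 ± 0.94) and 2.41 (from 3.46 ± 0.68), all called. Gpnmb was not called with the acinar score (3.92, 0.113) nor Ctsk (3.13, 0.133).

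Mmp9, gelatinase B, was 0.233, 45 and 1.3 CPM in severe Px against 0.106, 0, 0.219, 0.178 and 0.172 in Sham (6.78 ± 1.75, edgeR adjusted p = 0.00356). Its rise, the largest in size among genes of at least 5 CPM, rests on replicate 15 and was not called without it (2.45, 0.379), with the acinar score (4.84, 0.319), or over all libraries by limma voom (4.58, limma adjusted p = 0.369), also with sample weights (4.07, 0.304). Cd163, the haemoglobin scavenger receptor, had its peak in replicate 13 instead (91.3, 22.8 and 16.5 CPM, 3.92 ± 0.67) and was 2.8 without it, and was not called with the acinar score (0.58, 0.76). Lower-glucose Px spanned 154 to 848 CPM for Gpnmb and 34.9 to 367 for Mmp12, ranges that hold the severe Px value of replicate 15 in both. Replicate 15 also carries the highest glucose, 464, but with 3 libraries no relation to glucose was tested.

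**Figure D5:**
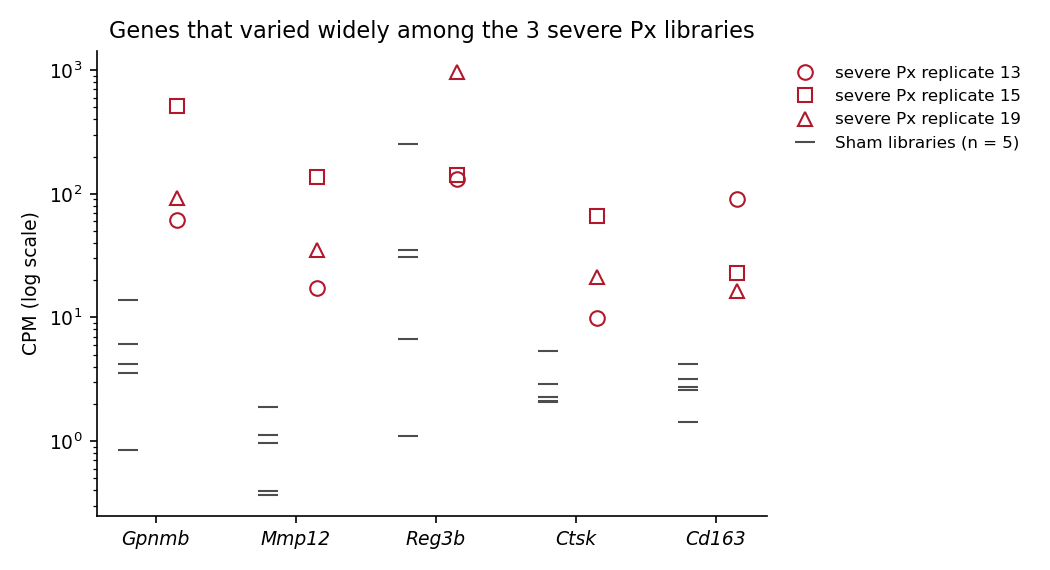
CPM (log scale) of 5 genes with a wide range among the severe Px libraries, with each severe Px replicate as its own symbol and the 5 Sham libraries as dashes. Replicate 15 is highest for Gpnmb, Mmp12 and Ctsk, replicate 19 for Reg3b and replicate 13 for Cd163.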

How the data were processed

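Read counts per gene for 15 libraries were deposited as whole-number counts by the authors, with FastQC, Subread, featureCounts and limma named without versions per the submitters' processing notes. The build is not named in the sources used here. Libraries were grouped by operation and glucose from the labels. The rule for the members used only the operation and glucose in the labels. That rule and the gene lists were set with earlier results of these data known.

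From the counts of 28914 genes, those passing edgeR's filterByExpr (minimum count 10, minimum total 15) were kept, 15661 genes. TMM scaling and a quasi-likelihood fit of 3 groups (Sham, lower-glucose Px, severe Px) were run in edgeR 4.0.16 under R 4.3.3, with Benjamini-Hochberg adjustment over all genes at 0.05. All 3 groups entered 1 fit so that they share 1 estimate of the spread. Alternatives used DESeq2 1.42.0, limma 3.58.1, other scalings and filters, an acinar score as a covariate, and each library left out in turn. Shares of counts were tested by exact permutation. Counting error only was considered for depth, which was 12.2 to 33.4 M counts over the 8 libraries.

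Named genes were 12 rises and 12 falls against Sham and 10 each against lower-glucose Px by size, at 5 CPM or more, up to 2 per list and direction, the 6 widest ranges at 20 CPM or more and a panel of 28 genes; not all are printed, and some genes are not reported here. On simulated counts of 14335 genes the severe Px against Sham test recovered 7 of 67 genes changed 1.5-fold, 36 of 67 changed 2-fold and 54 of 66 changed 4-fold, with 2 false among 99 calls. There all libraries were drawn from Sham levels and few genes changed, equally up and down. In the data 57.7% of genes were called and their balance depended on the scale. The low false count therefore does not carry over to these data. The authors' own comparison table was not used.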

Additional observations from a re-analysis of the deposited data

Results flagged for a closer look

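In groups of 4 to 10 libraries, the highest or lowest value was set against its gap to the next one, and 31 of 278 sets of values had 1 library apart from the rest. Chance flags about 1 in 20 such sets. Sham replicate 25 was high for the acinar share (16.41%), Ctrb1 (7590 CPM), Prss2 (2170), Prss3 (662.5), Try5 (398) and Folr1 (2.062). Sham replicate 24 was high for Vcan (2.683 CPM), Adam12 (1.62), Ctsk (5.365), Reg3b (254.2) and Anxa1 (17.16). Sham replicate 27 was high for Slc2a2 (2100 CPM) and Gad2 (467.4) and low for Ddit3 (4.886). In lower-glucose Px, replicate 11 stood apart for Ins1 (21820 CPM), Mt-nd5 (1913), Oasl (6.88) and Adtrp (3.494), and replicate 14 for Sst (416), Mafa (61.21), Mmd2 (3.101) and Snx31 (1.384). Replicate 8 stood apart for Ldha (104 CPM), Mcm3 (25.87), Acly (492.4), Vcan (95.46), Ptprc (136.5), Irf8 (66.46) and Ubd (34.95), replicate 16 for Ppcdc (5.804) and replicate 4 for Tgfb2 (33.51). The 3 severe Px libraries are too few for this comparison.

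Of 137 genes named, 39 differed between severe and lower-glucose Px by edgeR's quasi-likelihood test of that difference. Some of the 137 were named because they passed this test, so the count does not measure how often genes differed. Over all genes tested the share called was 4.88%. On the log2 scale, those higher in severe Px were Snx31 (3.65), Ppcdc (3.47), Elfn1 (3.39), G6pc (3.15), Cntfr (2.98), Adgrf3 (2.7), Serpina6 (2.64), Efcab6 (2.585), Cartpt (2.53), Adtrp (2.39), Tph1 (2.27), Tdh (1.885), Sst (1.88), Pfkfb3 (1.54), Acacb (1.5), Oasl (1.11), Pyy (0.94), Chgb (0.91), Slc4a4 (0.76), Ndrg2 (0.73), Cox6c (0.61), Klf10 (0.46) and Cyp51 (0.40). Those lower were Ubd (−3.66), Adam12 (−2.48), Vcan (−2.4), Col1a1 (−2.17), Lrrc55 (−2.14), Col7a1 (−2.12), Cthrc1 (−2.05), Col12a1 (−2.05), Sstr5 (−1.77), Slit1 (−1.23), Mki67 (−0.94), Tnfrsf11b (−0.85), Gad2 (−0.80), Kcnip1 (−0.78), Kcnma1 (−0.66) and Glp1r (−0.55).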

How the results depend on the processing

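No paired analysis was possible because the groups share no replicate number. Of 130 named genes called against Sham, 126 kept the call whichever library was left out, and Gast, Col7a1, Mmp9 and Reg3b did not. Against lower-glucose Px 18 of 39 did. The count against Sham was 9044 and 7932 to 9000 with 1 library left out, 3752 with the acinar score and 2507 when tested against a log2 fold change of 1. The count against lower-glucose Px was 764 and 270 to 983 with 1 library left out, 142 by library totals, 418 by granule scaling, 475 with the acinar score, 1351 by DESeq2, 1882 by limma voom with sample weights, 509 with the 2 groups alone and 27 against a log2 fold change of 1. The cause was not tested. The acinar share difference was 33.6 percentage points, 21.6 without its 3 most abundant genes, and 31.4 to 36.5 with 1 library left out, where the exact p cannot pass 0.05. The hormone share difference was −12.9, −11 of counts outside the acinar list, and −14.4 to −11 with 1 library left out. Estimates against Sham that changed sign were Sst (−0.44) and Cntfr (−0.45) with the acinar score, Iapp (0.13), Hspa5 (0.17) and Ddit3 (0.13) by granule scaling, and Gcg (−0.44), Sst (−0.75) and Cyp51 (−0.50) by library totals. Against lower-glucose Px, Klf10 (−0.04) and Cyp51 (−0.11) did by library totals.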
